A study of Mus musculus with 6 samples.

Results

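Genes of cholesterol and fatty acid synthesis were followed, enzyme by enzyme, in activated B cells of mice with a lupus-like disease. The set holds 33 named genes of the 41669 in the table: 18 sterol enzymes, 9 enzymes of fatty acid synthesis and desaturation, 5 regulators of the SREBP pathway and the sterol carrier Stard4. RNA sequencing covered splenic B cells from 3 female and 3 male mice of the NZB/W F1 hybrid, which develops autoantibodies and nephritis, all with late disease. A positive-selection column had enriched the B cells, and CpG, DNA that activates Toll-like receptor 9, was present in culture for 24 h. All 6 cultures were stimulated, so nothing here separates the response to CpG from the resting state, and the labels give no ages. Females were set against males, the comparison that the series design names.

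Cholesterol is built from acetyl-CoA through mevalonate, isoprenyl diphosphates, squalene and lanosterol, and the last enzymes trim lanosterol to cholesterol. Fatty acids are built from the same acetyl-CoA by the carboxylase Acaca and the synthase Fasn, and are then desaturated and elongated. Both branches are switched on by SREBP transcription factors, which are held in the endoplasmic reticulum by Scap and the INSIG proteins while sterols are plentiful and are released when sterols run low. Lymphocytes that start to divide are known to raise both branches to supply membrane lipid.

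Promoter windows in RefSeq (build GRCm38.p6; 250 bases before to 50 bases after each transcription start, 300 bases in all) were found for 26 of the 33 genes, with 34 windows. No window was used for Fdps, Fdft1, Sqle, Stard4, Scd1, Scd2 and Fads1. Both strands were searched for the sterol regulatory element consensus TCACNCCAC, the CCAAT box and the GC box GGGCGG, none of which contains another. The consensus was in 1 of the 34 windows (2.94%), against 1.24% of all 32851 windows of that length. A CCAAT box was in 22 of them (64.7%), against 37.4% of all windows, and a GC box was in 25 (73.5%), against 35.7%. By gene, the CCAAT box was in the windows of 14 of 15 sterol enzymes, 4 of 5 regulators and 3 of 6 fatty acid enzymes. These are matches of letters, not measured binding sites. The windows below are those of Hmgcs1, the one gene with the consensus match, of Msmo1 and Nsdhl, the sterol enzymes with the smallest p values between the sexes, and of Insig1, the regulator with the highest level per length of transcript. They lie at chr13:119690101-119690400 (plus strand), chr8:64733529-64733828 (minus strand), chrX:72918271-72918570 (plus strand) and chr5:28071162-28071461 (plus strand). Each is written 5′ to 3′ on the strand of its gene, and capitals mark the motif matches on either strand.
Hmgcs1: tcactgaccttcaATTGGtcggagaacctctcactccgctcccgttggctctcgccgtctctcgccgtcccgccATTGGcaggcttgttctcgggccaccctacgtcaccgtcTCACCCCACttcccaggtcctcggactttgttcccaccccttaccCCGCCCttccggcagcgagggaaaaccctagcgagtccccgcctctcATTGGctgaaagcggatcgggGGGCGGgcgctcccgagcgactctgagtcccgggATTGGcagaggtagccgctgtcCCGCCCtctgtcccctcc
Msmo1: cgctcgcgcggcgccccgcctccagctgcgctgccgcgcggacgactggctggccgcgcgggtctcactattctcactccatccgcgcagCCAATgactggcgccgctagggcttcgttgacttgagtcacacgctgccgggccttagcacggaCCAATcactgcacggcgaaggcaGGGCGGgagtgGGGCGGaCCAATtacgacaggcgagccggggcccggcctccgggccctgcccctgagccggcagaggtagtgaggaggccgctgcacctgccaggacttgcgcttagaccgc
Nsdhl: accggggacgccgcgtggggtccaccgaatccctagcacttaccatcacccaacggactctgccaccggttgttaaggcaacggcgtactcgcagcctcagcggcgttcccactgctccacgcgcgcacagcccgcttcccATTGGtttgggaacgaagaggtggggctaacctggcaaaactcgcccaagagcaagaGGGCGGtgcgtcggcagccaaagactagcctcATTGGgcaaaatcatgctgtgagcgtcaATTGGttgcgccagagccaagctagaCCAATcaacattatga
Insig1: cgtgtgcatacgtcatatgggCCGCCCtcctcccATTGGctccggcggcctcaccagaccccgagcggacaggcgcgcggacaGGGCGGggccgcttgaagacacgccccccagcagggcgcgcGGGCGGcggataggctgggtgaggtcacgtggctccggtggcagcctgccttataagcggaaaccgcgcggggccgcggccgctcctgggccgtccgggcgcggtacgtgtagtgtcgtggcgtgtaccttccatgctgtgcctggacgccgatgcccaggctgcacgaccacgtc
The consensus match in Hmgcs1 starts 137 bases before the transcription start. The Hmgcs1 window also holds 4 CCAAT boxes and 3 GC boxes, the Msmo1 window 3 and 2, the Nsdhl window 4 and 1, and the Insig1 window 1 and 3.

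The libraries held 24089561, 29407229 and 35659883 estimated counts in females 1 to 3 and 31550301, 27402953 and 33205284 in males 1 to 3. A level is given on the usual CPM scale, a gene's count over the total of its own library, and 3 counts, the floor used here, come to 0.0841 to 0.125 CPM. Intergroup differences are log2 fold changes, female over male, from edgeR's quasi-likelihood test with TMM scaling, which corrects the totals for their composition. With library totals alone the median log2 fold change of all 12172 tested genes was -0.12, against 0.00 with TMM, so a raw CPM ratio sits a little below the fitted one. Female 3 stood apart, with a first principal component score of 94.2 against -47.9 to 6.66 in the others and a TMM factor of 0.816 against 0.993 to 1.07. B cell markers summed to 2273 to 2488 CPM in females and 2317 to 2519 CPM in males. Myeloid markers summed to 5.57 to 12.6 CPM in females and 2.53 to 3.63 CPM in males. Of these, 5 of 5 tested ones had positive log2 fold changes and 3 of 10 were higher in every female, against 2.69% of all tested genes. Lyz2 had 2.39, 3.32 and 2.2 CPM in females and 0.282, 0.29 and 0.39 CPM in males (adjusted p = 0.0837 by edgeR, 6.36e-08 by DESeq2). Spic averaged 1.48 CPM in females and 0.35 CPM in males (adjusted p = 0.797 by edgeR, 0.0459 by DESeq2). The complement genes C1qa, C1qb and C1qc were at 0.0678 CPM or less in all 6 libraries. T cell markers summed to 4.49 to 7.53 CPM in females and 3.79 to 5.28 CPM in males, with Cd5 listed at 0 in every library. Of the 3 tested, 1 had a positive log2 fold change and 2 negative ones. In all, 1 of 8, Cd3d, was higher in every female, against 2.69% of all tested genes. Cd3d had 4.54, 2.32 and 2.44 CPM in females and 0.477, 0.476 and 2 CPM in males (adjusted p = 0.999 by edgeR, 0.696 by DESeq2). Erythroid markers summed to 0.718 to 2.34 CPM in females and 0.0178 to 0.422 CPM in males, and none was high enough to be tested. Of these, 1 of 6, Hbb-bs, was higher in every female. It had 1.58, 0.289 and 0.648 CPM in females and 0, 0.0347 and 0.0574 CPM in males. Plasma cell markers summed to 299 to 507 CPM in females and 303 to 355 CPM in males. Of the 7 tested, 5 had positive log2 fold changes and 2 negative ones. In all, 2 of 8 were higher in every female, against 2.69% of all tested genes. In the other direction, 1 of 8, Slamf7, was lower in every female, against 7.55%. Sdc1, Xbp1 and Mzb1 had log2 fold changes of 0.00, -0.00 and 0.02. Igj, the joining chain of secreted antibody, had 37.7, 48.4 and 48.2 CPM in females and 17.1, 17 and 18.3 CPM in males (adjusted p = 0.169 by edgeR, 9.97e-07 by DESeq2). Prdm1, a plasma cell transcription factor, had 22.1, 61.5 and 22.9 CPM in females and 11.7, 12.8 and 12.9 CPM in males (adjusted p = 0.999 by edgeR, 0.0194 by DESeq2). The part of these cells in the results below was not tested. Of 5 sex-linked check genes 4 were called by edgeR, in the direction the labels give.

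Most lipid synthesis genes had negative log2 fold changes, female over male, and no single one passed the main test. In bulk RNA, fewer cells of a type and less RNA per cell cannot be told apart. Of the 33 genes, 31 passed the low-count filter, Mvd was too low and Fdps was listed at 0 in all 6 libraries. edgeR called 0 of the 31 at an adjusted p under 0.05, against 7 of all 12172 genes (0.0575%). The log2 fold change was negative in 25 of the 31 and positive in 6, with a median of -0.35, while all tested genes split into 6073 negative and 6099 positive with a median of 0.00. With library totals 30 of the 31 were negative, and without female 3 it was 25, with a median of -0.22. An unadjusted p under 0.05 with a lower female level was seen in 7 of the 31 (Sqle, Cyp51, Msmo1, Nsdhl, Acss2, Scd2 and Fads2), against 1.23% of all tested genes, and none of the 31 had such a p with a higher female level. In 13 genes every female was below every male, against 7.55% of all tested genes, and in 0 genes was every female above every male, against 2.69%. The count of 13 was 11 with TMM-scaled CPM (4.57% of all genes) and 9 once each library's dependence on transcript length and GC content was taken out (4.51%). Leaving out female 3, females 1 and 2 were below all males in 14 genes, against 10.8% of all tested genes. DESeq2 called 1 of the 31, Scd2, against 0.288% of genes. limma-voom with sample quality weights called 5 (Nsdhl, Acss2, Scd1, Scd2 and Fads2), against 1.88%, and limma-voom without them called 0. The quality weights that gave 5 calls also brought the sterol median to -0.20, against -0.38 by edgeR.

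**Figure D1:**
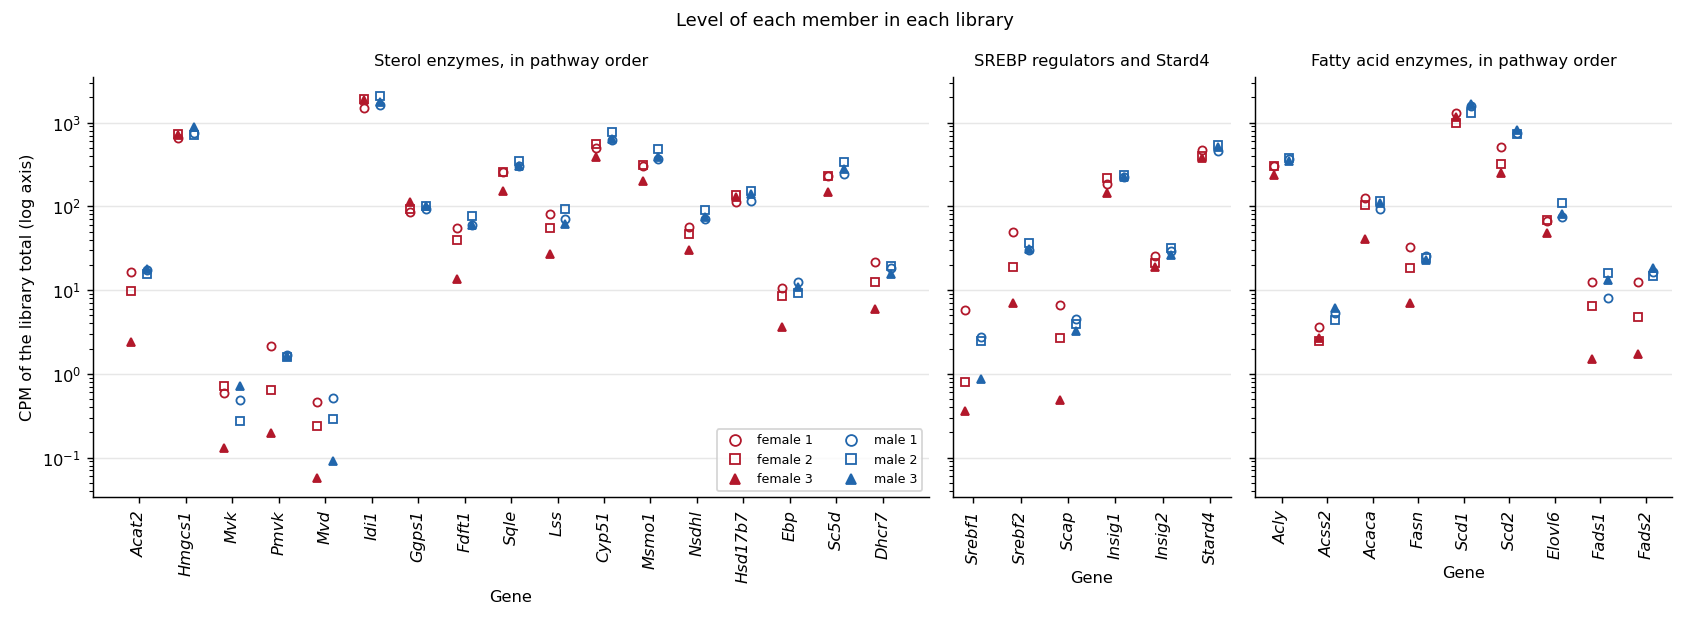
Level of each gene in each library, in CPM of the library total on a log axis, with sterol enzymes, SREBP regulators with Stard4, and fatty acid enzymes in pathway order; red symbols are females and blue symbols males, and Fdps is not drawn because it is listed at 0. Levels span Mvk and Mvd at under 1 CPM to Idi1 and Scd1 at 979 CPM or more, and female 3 (filled red triangle) is the lowest of the 6 libraries for 26 of the 32 genes with counts.

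The start of the sterol branch showed no separation of the sexes. Hmgcs1, which condenses acetyl-CoA and acetoacetyl-CoA to HMG-CoA, had 661, 737 and 720 CPM in females and 743, 708 and 881 CPM in males. The groups overlapped through male 2, and the log2 fold change was 0.01 (SE 0.18), or -0.14 with library totals. Acat2, the cytosolic thiolase before it, had the smallest p of the mevalonate step, with 16.6, 9.61 and 2.41 CPM in females and 17.2, 15.4 and 17.7 CPM in males. Only females 2 and 3 lay below the male range, and the log2 fold change was -0.77 (SE 0.51; unadjusted p = 0.173, adjusted p = 0.999 by edgeR). It was -0.36 without female 3 and -1.34 without female 1. The kinases that phosphorylate mevalonate were rare. Mvk averaged 0.482 ± 0.312 CPM in females and 0.491 ± 0.223 CPM in males, and Pmvk averaged 0.987 ± 1.01 CPM in females and 1.64 ± 0.0473 CPM in males (SD, n = 3 each). Mvd, the decarboxylase that follows, had 0.0565 to 0.454 CPM in females and 0.0900 to 0.508 CPM in males. It lay under the 3-count floor in female 3 (0.0565 against 0.0841 CPM) and, by little, in male 3 (0.0900 against 0.0903 CPM).

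At the isoprenyl step the sexes overlapped. Idi1, the isomerase that makes dimethylallyl diphosphate, averaged 1753 ± 238 CPM in females and 1812 ± 226 CPM in males, the highest mean of the set. Ggps1, which makes the geranylgeranyl diphosphate used to anchor small GTPases, had the smallest p of this step, with 85.8, 91.8 and 112 CPM in females and 92.1, 102 and 102 CPM in males. Its highest library and its lowest library were both female. Log2 fold changes were 0.11 (SE 0.22) for Idi1 and 0.13 (SE 0.21) for Ggps1, and both turned negative with library totals (-0.05 and -0.03) and without female 3 (-0.07 and -0.13). Fdps, which makes farnesyl diphosphate and which dividing cells need, is listed at 0 in every library, so its 0 is a listed value and not a measured level.

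From squalene onward the female CPM means were lower than the male ones, though no gene passed the test. Female CPM means were also lower in every earlier sterol gene with counts. Fdft1, squalene synthase, the first enzyme committed to sterols (chr14:63145150-63179578, minus strand, GRCm38.p6), had 55.7, 39.8 and 13.6 CPM in females and 59.9, 76.5 and 60.3 CPM in males. Every female was below every male, female 1 by little and female 3 by most, and the log2 fold change was -0.78 (SE 0.38; unadjusted p = 0.0717, adjusted p = 0.999 by edgeR), or -0.45 without female 3. Sqle, squalene epoxidase, a control point of the branch (chr15:59315077-59331192, plus strand), had 254, 258 and 152 CPM in females and 305, 349 and 300 CPM in males. Females 1 and 2 were close to each other and both below the lowest male, with a log2 fold change of -0.41 (SE 0.17; unadjusted p = 0.0401, adjusted p = 0.999 by edgeR). Lss, which closes the sterol rings, overlapped, at 54.6 ± 27.5 CPM in females and 75.2 ± 16.1 CPM in males (SD, n = 3 each).

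Of the 7 late sterol enzymes, 6 had negative log2 fold changes, and the median was -0.38. In 4 every female was below every male, against 7.55% of all tested genes. The count was 3 with TMM-scaled CPM (4.57% of all genes) and 4 once the length and GC trend was removed (4.51%). Nsdhl, the dehydrogenase that removes methyl groups from sterol intermediates, lies on the X chromosome (chrX:72918557-72958514, plus strand). It had 57.2, 47.2 and 30.1 CPM in females and 71.2, 89.5 and 75.1 CPM in males. Every female was below every male, but the gap between the sexes was smaller than the range within either sex. The log2 fold change was -0.70 (SE 0.19; unadjusted p = 0.00596, adjusted p = 0.999 by edgeR). Msmo1, the methylsterol monooxygenase of the same demethylation, had 303, 310 and 198 CPM in females and 367, 483 and 383 CPM in males, with a log2 fold change of -0.49 (SE 0.17; unadjusted p = 0.0218, adjusted p = 0.999 by edgeR). In Msmo1 too, females 1 and 2 lay together under the male range and female 3 lay lower still. Cyp51, the lanosterol demethylase, had 503, 552 and 388 CPM in females and 612, 781 and 644 CPM in males, and Sc5d, a sterol desaturase, had 232, 233 and 148 CPM in females and 246, 336 and 279 CPM in males. In both genes male 2 was highest and female 3 lowest, with all females below all males, but Sc5d overlapped once TMM factors were applied. Their log2 fold changes were -0.37 (SE 0.16; unadjusted p = 0.0474) for Cyp51 and -0.38 (SE 0.17; unadjusted p = 0.0633) for Sc5d, both with an adjusted p of 0.999 by edgeR, and without male 2 that of Sc5d was -0.25. With quality weights the values were -0.18 for Cyp51, -0.17 for Sc5d and -0.27 for Msmo1. The remaining 3 overlapped: Hsd17b7, the ketosteroid reductase, averaged 126 ± 13.4 CPM in females and 137 ± 18.3 CPM in males. Ebp, the sterol isomerase and the other X-linked gene, averaged 7.55 ± 3.55 CPM in females and 11 ± 1.7 CPM in males. Dhcr7, which catalyses the final reduction of one route to cholesterol, averaged 13.2 ± 7.72 CPM in females and 17.8 ± 1.91 CPM in males (SD, n = 3 each throughout).

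Of the 5 SREBP regulators, the INSIG genes were lower in every female and the other 3 overlapped between the sexes. Srebf1, which encodes the factor best known for fatty acid genes, had 5.74, 0.788 and 0.356 CPM in females and 2.73, 2.46 and 0.872 CPM in males. Srebf2, which encodes the factor best known for sterol genes, had 49.2, 19.0 and 6.97 CPM in females and 30.0, 36.4 and 30.6 CPM in males. In both genes female 1 was the highest library and female 3 the lowest, with all 3 males between them. Scap, the escort protein of the SREBPs, had the same order of females, with 6.70, 2.69 and 0.480 CPM, against 4.5, 3.96 and 3.21 CPM in males. The INSIG genes, whose products retain Scap, were steadier. Insig1, itself a known SREBP target, had 184, 217 and 145 CPM in females and 223, 237 and 224 CPM in males. Insig2 had 25.6, 21.2 and 18.7 CPM in females and 29.3, 32.1 and 26.3 CPM in males. In both INSIG genes every female was below every male, Insig2 by less than 1 CPM at the closest pair, but Insig1 overlapped with TMM factors, and both overlapped after correction for length and GC. Log2 fold changes were -0.20 (SE 0.15) for Insig1, -0.29 (SE 0.17) for Insig2, -0.33 (SE 0.52) for Srebf2, -0.22 (SE 0.70) for Scap and 0.19 (SE 0.91) for Srebf1. Without female 3 the values were 0.06 for Srebf2, 0.26 for Scap and 0.66 for Srebf1, and without female 1 that of Srebf1 was -1.63. Stard4, a cytosolic cholesterol carrier and known SREBP target, averaged 413 ± 48.8 CPM in females and 503 ± 47.2 CPM in males and overlapped (log2 fold change -0.15, SE 0.14; n = 3 each).

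All 9 fatty acid enzymes had negative log2 fold changes, with a median of -0.42. In 5 every female was below every male, against 7.55% of all tested genes. The count was 5 with TMM-scaled CPM (4.57% of all genes) and 3 once the length and GC trend was removed (4.51%). Without female 3, Acaca (0.13) and Fasn (0.09) turned positive, and the median was -0.40. Acly, which splits citrate to release acetyl-CoA, had 305, 307 and 238 CPM in females and 363, 378 and 343 CPM in males. Acss2, which makes acetyl-CoA from acetate, had 3.57, 2.48 and 2.69 CPM in females and 5.37, 4.42 and 6.04 CPM in males. Both genes of acetyl-CoA supply were lower in every female, but overlapped once the length and GC trend was removed, with log2 fold changes of -0.22 (SE 0.13) for Acly and -0.72 (SE 0.30; unadjusted p = 0.0430, adjusted p = 0.999 by edgeR) for Acss2.

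The enzymes that build the chain did not separate. Acaca, the carboxylase that makes malonyl-CoA and commits carbon to the branch, had 127, 103 and 40.6 CPM in females and 92.1, 117 and 110 CPM in males. Fasn, which builds palmitate, had 33, 18.3 and 7.05 CPM in females and 25.3, 24.1 and 22.6 CPM in males. In both genes female 1 was above every male and female 3 below every male.

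The widest differences were among the desaturases. Scd2, one of the mouse stearoyl-CoA desaturases that make monounsaturated fatty acids (chr19:44293674-44306864, plus strand), had 513, 317 and 252 CPM in females and 753, 739 and 810 CPM in males. The males lay close together and every female lay far below them. The log2 fold change was -0.99 (SE 0.20; unadjusted p = 0.00131), the smallest p of the 33 genes. The adjusted p was 0.797 by edgeR, 0.00872 by DESeq2 and 0.00244 by limma-voom with sample quality weights, and over all 16 alternatives it ran from 0.00244 to 1, with fold changes between -1.22 and -0.89. Without female 3 it was -0.89, and it was -0.97 after correction for length and GC. Its neighbour Scd1 (chr19:44394455-44407879, minus strand), the main stearoyl-CoA desaturase of mouse liver, had 1303, 979 and 1156 CPM in females and 1596, 1293 and 1685 CPM in males. Only male 2 lay inside the female range, and the log2 fold change was -0.27 (SE 0.19; unadjusted p = 0.197). It was -0.13 without female 2, -0.41 without female 3 and -0.59 with quality weights, the only fit that called it (adjusted p = 0.0375, against up to 1 over the alternatives). Reads from transcripts of similar sequence can be split between these paralogues by estimated counting.

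Fads2, the desaturase that starts the route to long polyunsaturated fatty acids (chr19:10062765-10101746, minus strand), had 12.5, 4.71 and 1.70 CPM in females and 16.6, 14.7 and 18.4 CPM in males. Every female was below every male, but the females differed among themselves by more than the nearest female and male did. Its log2 fold change was -1.36 (SE 0.56; unadjusted p = 0.0419, adjusted p = 0.999 by edgeR), -0.96 without female 3 and -2.21 without female 1. Fads1, which acts later in that route, overlapped, at 6.82 ± 5.48 CPM in females and 12.4 ± 3.99 CPM in males (SD, n = 3 each). Elovl6, which elongates palmitate, had 66.5, 68.8 and 47.5 CPM in females and 75.4, 110 and 81.1 CPM in males. Its females lay just under the male range, with a log2 fold change of -0.42 (SE 0.18; unadjusted p = 0.0508), or -0.24 without male 2.

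**Figure D2:**
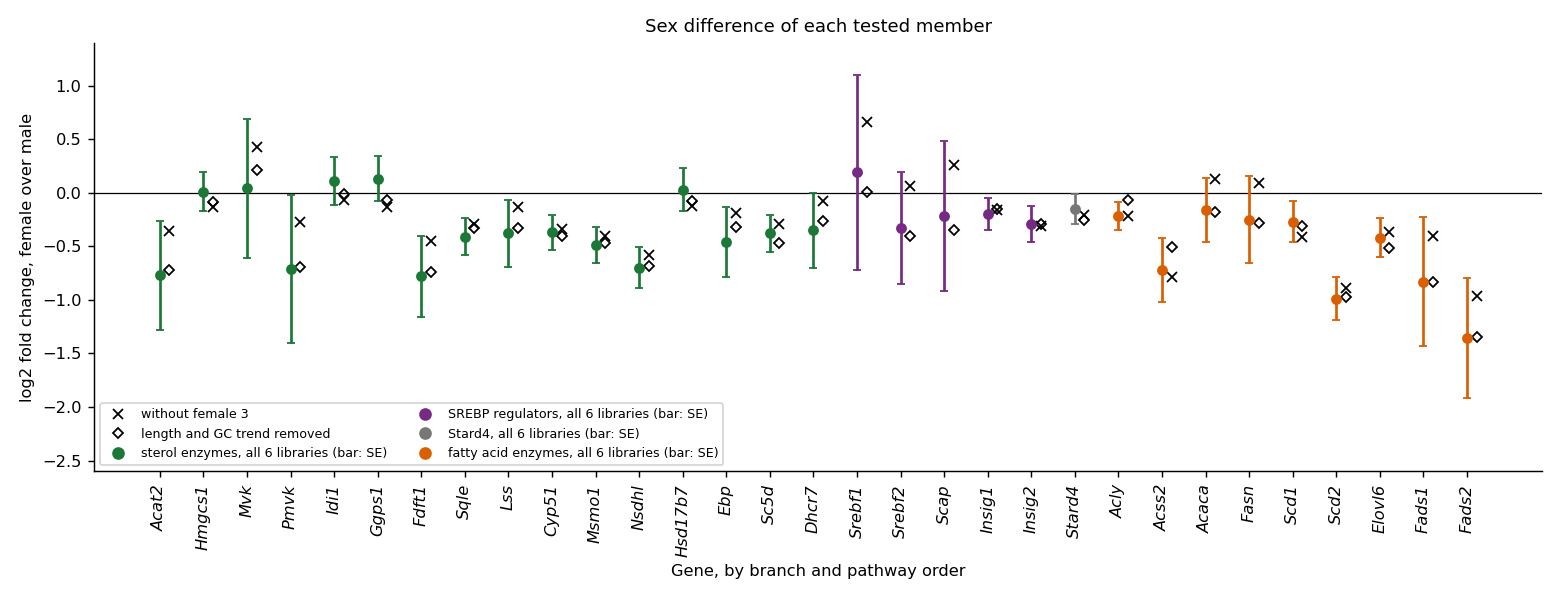
Log2 fold change, female over male, of the 31 tested genes in pathway order: filled points are the edgeR estimate over all 6 libraries with its SE, crosses the estimate without female 3 and diamonds the estimate after correction for length and GC (the length and GC trend removed). Scd2, Nsdhl and Fads2 stay below 0 in all 3 estimates, as do most of the other genes, among them Fdft1, Msmo1 and Acss2. Hmgcs1, Idi1, Ggps1 and Hsd17b7, just above 0 over all libraries, lie below 0 in the other estimates, as they do with library totals.

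Both enzyme branches had negative medians. The median log2 fold change was -0.38 over 16 tested sterol enzymes (11 negative), -0.42 over 9 fatty acid enzymes (9 negative) and -0.22 over 5 regulators (4 negative). With library totals these were -0.49, -0.54 and -0.32. They were -0.33, -0.51 and -0.29 after correction for length and GC. Without female 3 they were -0.23, -0.40 and 0.06, so the regulators' median changed sign. Step by step, the medians were -0.35 for mevalonate, 0.12 for isoprenyl, -0.41 for squalene and lanosterol and -0.38 for the late sterol enzymes. They were -0.47 for acetyl-CoA supply, -0.20 for chain synthesis and -0.83 for desaturation and elongation. Without female 3 the isoprenyl median was -0.10, that of chain synthesis 0.11 and that of desaturation and elongation -0.41. Each step rests on 2 to 7 tested genes and no difference between steps was tested.

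By summed level, the fatty acid enzymes held 2376, 1806 and 1747 CPM in females and 2935, 2696 and 3090 CPM in males. Every female was below every male in this sum, also with TMM factors (2226, 1821 and 2141 CPM in females, 2790, 2569 and 2964 CPM in males), and Scd1 and Scd2 made up most of it. The sterol enzymes held 3876, 4401 and 3802 CPM in females and 4356, 5280 and 4724 CPM in males, and female 2 overlapped male 1. With TMM factors the sterol sums were 3631, 4436 and 4661 CPM in females and 4140, 5030 and 4532 CPM in males, so female 3, the lowest library by plain CPM, lay above males 1 and 3. The regulators held 271, 261 and 172 CPM in females and 289, 312 and 285 CPM in males, and 254, 263 and 211 CPM in females and 275, 297 and 274 CPM in males with TMM factors. Every female was below every male in the regulators' sum on both scales, and Insig1 made up most of it. Idi1 alone took 1479 to 1909 CPM of the sterol sum in females and 1622 to 2062 CPM in males.

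Within a library, paralogue ratios do not depend on its scaling, apart from the pseudocount of 0.1 CPM added to both genes. The log2 ratio of Scd1 to Scd2 was 1.34, 1.63 and 2.20 in females and 1.08, 0.81 and 1.06 in males, so the CPM of Scd1, not corrected for transcript length, was 2.54 to 4.59 times that of Scd2 in females and 1.75 to 2.12 times in males. The sexes did not overlap in this ratio. The difference, female minus male, was 0.74, with p = 0.1 by an exact 2-sided permutation test, the smallest p that 3 against 3 allows, and 0.3 after Benjamini-Hochberg adjustment over the 3 ratios tested. Srebf1 to Srebf2 ran from -4.43 to -3.08 in females and from -4.98 to -3.41 in males (difference 0.26, exact permutation p = 0.7, adjusted 0.8). Insig1 to Insig2 ran from 2.84 to 3.35 in females and from 2.88 to 3.09 in males (difference 0.08, exact permutation p = 0.8, adjusted 0.8). Both of the last pairs overlapped between the sexes. With a pseudocount of 0.5 CPM the difference for Srebf1 to Srebf2 was 0.45 (exact permutation p = 0.5). Those for Scd1 to Scd2 and Insig1 to Insig2 stayed at 0.74 and 0.08.

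**Figure D3:**
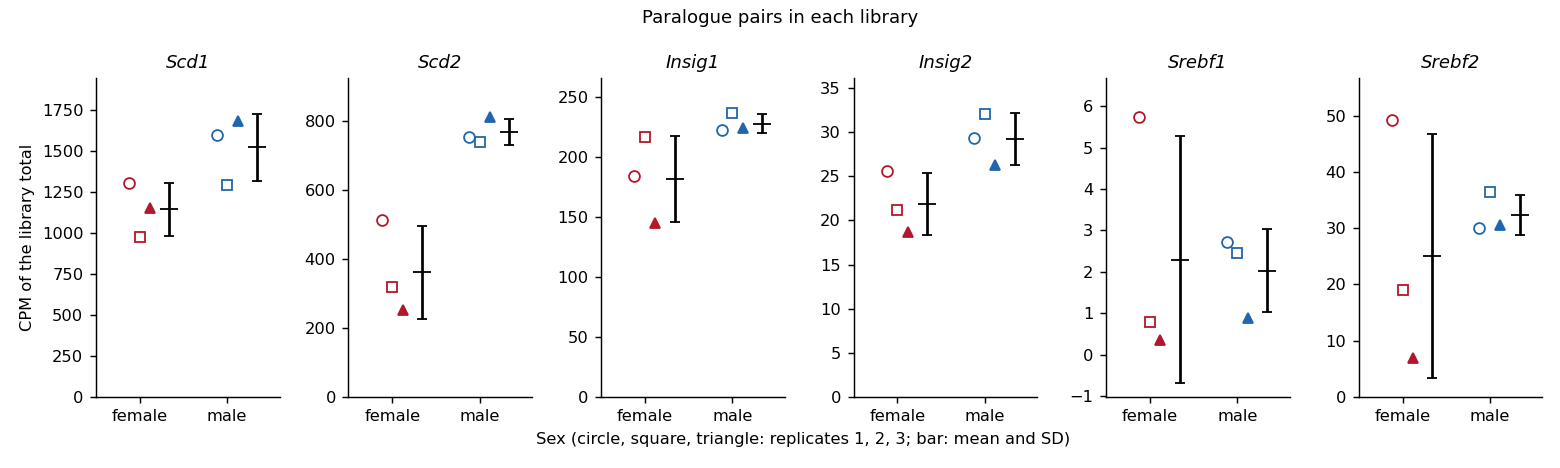
CPM of the library total for Scd1, Scd2, Insig1, Insig2, Srebf1 and Srebf2 on linear axes, females left and males right; symbols are replicates 1 to 3 and the bar is the mean with its SD (the Srebf1 axis runs below 0 only to hold the SD bar). Scd2 shows 252 to 513 CPM in females against 739 to 810 CPM in males, while in Srebf1 and Srebf2 the 3 males lie within the female range.

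Per length of transcript, levels differed over more than 3 powers of 10. Whether the deposited counts had already been scaled by transcript length is not stated, and the CPM per kb values and the order of genes below depend on that. Over the 6 libraries Idi1 averaged 589 CPM per kb, Scd1 276, Hmgcs1 214, Msmo1 167, Cyp51 148 and Scd2 103. Among the regulators, Insig1 was at 76.0, Insig2 at 9.47, Srebf2 at 5.65, Scap at 0.849 and Srebf1 at 0.502 CPM per kb. Mvk at 0.293 and Mvd at 0.155 CPM per kb were the lowest with any counts. This order followed GC content: across the 31 tested genes the Spearman correlation of CPM per kb with the GC content of the longest coding transcript was -0.80 to -0.75 in each of the 6 libraries, against -0.45 to -0.28 across all genes with an annotated transcript. Genes share their library, so these are descriptions. The 16 members with at least 50% GC had a median of 2.47 CPM per kb and the 17 below 50% had 76.0. Srebf1, Fasn, Mvk and Fdps are among the GC-rich ones, and the part of GC content in their low or listed 0 levels was not tested.

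The females varied more than the males. The coefficient of variation over 3 libraries had a median of 34.1% in females and 12.3% in males over the genes with counts, and it was larger in females for 29 of 32 genes, against 71.1% of all tested genes. Over all tested genes the medians were 27.9% in females and 15.7% in males. Female 3 was the lowest library for 26 of the 32 genes, against 51.4% of all tested genes, and male 2 was the highest for 15, against 23.8%. In female 3 the log2 level minus the average over the other 5 libraries had a median of -1.57 over 14 tested genes with at least 50% GC and of -0.31 over 17 genes below 50%. It was 0.59 in Ggps1 and 0.45 in Idi1, at 40.1% and 41.9% GC, and -2.59 in Scap and -1.91 in Srebf1, at 59.1% and 58.4% GC. The Spearman correlation of this deviation with GC was -0.79 over the members and -0.60 over all genes, and in female 1 it was 0.80 and 0.51. Scd2, at 49.5% GC, deviated by -0.88 and Nsdhl, at 45.8% GC, by -0.79.

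**Figure D4:**
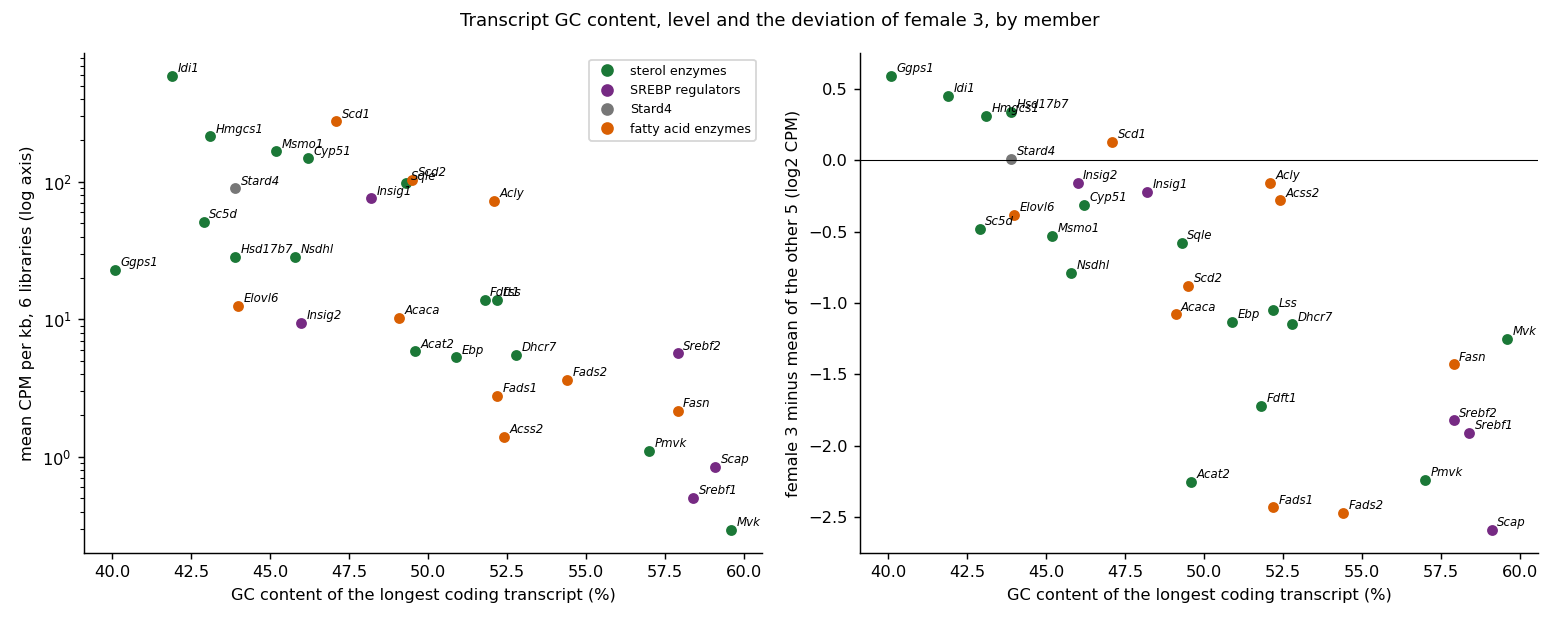
GC content of the longest coding transcript of each of the 31 tested genes (horizontal axes, percent) against its mean CPM per kb on a log axis (left) and against the log2 level of female 3 minus the mean of the other 5 libraries (right). Members with more GC lie lower in both panels, with Idi1 at 589 CPM per kb and a deviation of 0.45, and Scap at 0.849 CPM per kb and a deviation of -2.59.

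Genes around the 2 branches gave no call by edgeR in either direction. Of other sterol synthesis genes 3 of 5 were tested, with a median log2 fold change of -0.05, and Acat1, a mitochondrial thiolase, had the smallest p at 46.8 ± 10.3 CPM in females and 55.9 ± 6.53 CPM in males. The 6 genes of SREBP proteolysis and INSIG turnover had a median of -0.04 (0.05 without female 3). Among them Mbtps2, the site-2 protease that frees SREBPs, averaged 126 ± 15.1 CPM in females and 103 ± 27.3 CPM in males (unadjusted p = 0.0828, adjusted p = 0.999 by edgeR). The 7 tested genes of the LXR pathway, sterol efflux and esterification had a median of 0.05, which was -0.21 without female 3 and -0.06 after correction for length and GC. Among them Mylip, the ubiquitin ligase that degrades lipoprotein receptors, averaged 4.55 ± 0.846 CPM in females and 7.56 ± 1.84 CPM in males (unadjusted p = 0.0730, adjusted p = 0.999 by edgeR). The 16 tested genes of other fatty acid synthesis and activation had a median of -0.04, with Acsl5, an acyl-CoA synthetase, at 126 ± 61.2 CPM in females and 181 ± 7.66 CPM in males. The 12 genes of fatty acid oxidation had a median of -0.05 (0.03 without female 3 and after correction for length and GC), with Slc25a20, the carnitine carrier, at 16.9 ± 3.70 CPM in females and 15.5 ± 0.810 CPM in males. The 11 tested genes that use isoprenoids for other ends had a median of 0.22 (0.11 without female 3), with Pggt1b, a geranylgeranyl transferase subunit, at 8.09, 17.7 and 45.2 CPM in females and 5.75, 1.64 and 12.1 CPM in males (unadjusted p = 0.0409, adjusted p = 0.999 by edgeR). Its sexes overlapped. The 10 proliferation genes, from Mki67 to Tyms, summed to 4568 to 6218 CPM in females and 4912 to 6127 CPM in males, with a median log2 fold change of 0.00.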

How the data were processed

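The table holds 1 column of estimated counts per mouse for 41669 gene symbols, from 3 female and 3 male mice. Per the submitters' processing notes, the authors deposited estimated counts made with kallisto on the mouse build GRCm38.p6 and also used DESeq2; their versions, the annotation and the import settings are not stated there. Estimated counts were rounded to whole numbers. Symbols were matched to the GENCODE annotation of that build for coordinates, length and GC content (39227 by symbol, 933 by synonym; 98.79% of tested genes have a length and GC value).

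The test of sex was edgeR's quasi-likelihood test (version 4.0.16, R 4.3.3) after filterByExpr and TMM scaling, with no other covariate. Benjamini-Hochberg adjustment ran over 12172 genes at 0.05, and the common biological coefficient of variation came to 0.351. The SE is the log2 fold change divided by the square root of F. Ratios used a pseudocount of 0.1 CPM. CPM per kb used the longest coding transcript. Alternatives were DESeq2 1.42.0, limma 3.58.1 (voom, with and without sample quality weights), RLE factors, library totals, all genes unfiltered, at least 1 CPM in 3 libraries, a replicate block, each library left out in turn, a length and GC trend removed (splines of 4 degrees of freedom), 320 immunoglobulin genes removed, and a pseudocount of 0.5. The floor of 3 counts covers counting error only. No 2 libraries agreed within sampling noise.

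The listed genes, the lists and the rule for named genes were chosen with earlier results of these data known. By that rule, values in all 6 libraries are given for the regulators, Hmgcs1, Sqle, Acaca, Fasn, Scd1, Scd2, genes with no overlap and the smallest p of each step. Other lists name the gene with the smallest p, except those of B cell markers, proliferation genes and sex check genes. No erythroid marker was tested, and some further cell markers are named beyond that rule. Non-overlap without female 3 was added after seeing the data. Figures were drawn with matplotlib 3.10.9.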

Additional observations from a re-analysis of the deposited data

How the results depend on the processing

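Of 495 pairs of a listed gene and an alternative, 456 had the direction and the side of the threshold of the fit reported above, 33 changed direction and 6 passed the threshold. edgeR's 7 called genes became 35 with DESeq2, 11 without the filter, 229 with quality weights and 11 once the trend with length and GC was removed. The listed genes called became 1 with DESeq2 and 5 with quality weights. The cause was not tested.

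The direction changes were in genes near 0 or with wide errors. Mvk had log2 fold changes of -0.07 with limma-voom and -0.04 with library totals, and Srebf1 had -0.48 with limma-voom. Library totals also gave -0.14 for Hmgcs1, -0.05 for Idi1, -0.03 for Ggps1 and -0.12 for Hsd17b7. Quality weights gave -0.08 for Hmgcs1, -0.02 for Ggps1, -0.53 for Srebf1 and 0.03 for Acaca, with medians of -0.20 for sterol enzymes, -0.59 for fatty acid enzymes and -0.35 for regulators. With them Sqle was at -0.20, Elovl6 at -0.19 and Insig1 at -0.02. Removing the length and GC trend gave -0.09 for Hmgcs1, -0.01 for Idi1, -0.07 for Ggps1 and -0.08 for Hsd17b7.

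Leaving out 1 library at a time, 4 to 12 genes of the whole table were called and 0 of the listed genes. The regulators' median ran from -1.15 (without female 1) to 0.06 (without female 3), with 2 to 5 of them negative. Single genes ran from -0.13 to 0.13 (Hmgcs1), -0.39 to 0.45 (Mvk), -0.07 to 0.29 (Idi1), -0.13 to 0.29 (Ggps1), -0.12 to 0.18 (Hsd17b7), -1.63 to 0.66 (Srebf1), -1.15 to 0.06 (Srebf2), -1.17 to 0.26 (Scap), -0.40 to 0.13 (Acaca) and -0.76 to 0.09 (Fasn). Without changing sign, values moved by over 1.5 times in Acat2 (-1.34 to -0.36), Pmvk (-1.80 to -0.27), Lss (-0.70 to -0.13), Ebp (-0.69 to -0.19), Dhcr7 (-0.77 to -0.08), Fads1 (-1.50 to -0.40) and Fads2 (-2.21 to -0.96), each lowest without female 1 and highest without female 3, as was Fdft1 (-1.14 to -0.45). They also did in Sc5d (-0.25 without male 2), Elovl6 (-0.24 without male 2), Insig1 (-0.31 without female 2, -0.13 without female 1), Stard4 (-0.09 without female 2 or male 2) and Scd1 (-0.13 without female 2, -0.41 without female 3). The sterol median ran from -0.47 (without female 1) to -0.23 (without female 3) and the fatty acid median from -0.76 to -0.37. The difference in log2 ratio ran from -0.20 to 0.59 for Srebf1 over Srebf2, from -0.07 to 0.19 for Insig1 over Insig2 and from 0.50 to 0.93 for Scd1 over Scd2.

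With the replicate block 7 genes were called and 0 of the listed ones, 27 of which were negative, with -0.01 for Mvk and -0.44 for Srebf1. Libraries of the same number shared only a number: their deviations correlated at 0.222, 0.0423 and 0.0695. Depth limits Mvd, which lay under the 3-count floor in 2 libraries, female 3 and male 3.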
